A study of Mus musculus with 5 samples.

Results

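Places where β-catenin sites lie close together were examined in mouse embryonic stem cells. A shared region here is a merged interval that holds a peak of both CHIR99021 peak lists, one captured by anti-FLAG and one by streptavidin. Shared regions were chained where the gap from one end to the next start was 12500 bp or less, and chains of 3 or more regions were kept. This left 664 of 9113 shared regions (7.29%), in 201 chains. The members were chosen by the interval positions of the CHIR99021 peak calls, so their number, spacing, tag counts and fold enrichments are given as descriptions.

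β-Catenin is the transcriptional effector of canonical Wnt signalling. It has no DNA-binding domain of its own and reaches chromatin mainly through TCF/LEF factors. GSK3 phosphorylates β-catenin and so sends it to the proteasome, and CHIR99021 blocks that kinase. Enhancers in stem cells often lie in runs of neighbouring elements, and stitching elements across short gaps is the usual first step in finding such runs. Histone marks and Mediator, which help to define enhancers, were not among these data, so a chain is a run of β-catenin peaks and not an enhancer call.

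The cells were V6.5 embryonic stem cells whose endogenous Ctnnb1 gene carries a knocked-in Biotin-3xFLAG tag, and which also express BirA, the enzyme that biotinylates the tag. They were grown with serum and LIF on feeder cells from DR4 mice, and the floating fraction after an hour on gelatin was collected as enriched for stem cells. The 3 ChIP libraries were CHIR99021 with anti-FLAG, CHIR99021 with streptavidin and DMSO with streptavidin, each from 10000000 cells. The other 2 libraries were inputs. Per the labels CHIR99021 was used at 3 µM, for 16 hours per the treatment protocol and 24 hours per the series text. The extraction protocol gives the dose as 3 mM. All groups share the tagged line, no ChIP from untagged cells was analysed here, and each group had 1 library. The capture of the DMSO library is given as labelled, although its file was named for FLAG. The shared treatment protocol mentions CHIR99021 alone, and the DMSO group follows its own treatment label.

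The anti-FLAG library held 16100920 unique tags and 16069 peaks, and the CHIR99021 streptavidin library 11934863 unique tags and 15947 peaks. The DMSO list held 12734 short peaks, 74 bp long at the median, with 6 tags. The MACS fragment length behind them was 30 bp, against 185 and 214 bp for the CHIR99021 lists. Its header gives no depth. The lack of a DMSO peak therefore sets no limit on binding. All coordinates are mm9, and no gene is named because an mm9 annotation was not used here.

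The chains were short runs. Of the 201, 158 held 3 regions, 31 held 4, 7 held 5, 4 held 6 and 1 held 7. A further 1596 shared regions formed 798 pairs, and 6853 stood alone. The median chain spanned 15148 bp (interval of the median 13271 to 16344 bp), from 3330 to 41966 bp. Member regions filled a median of 35.3% of that span. In all, the chains spanned 3196266 bp, of which 1090535 bp were peak. The median span was 13012 bp for chains of 3, 22602 bp for chains of 4 and 29614 bp for the 12 longer chains.

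Most neighbours inside a chain lay much closer than the limit allowed. The median of the 463 gaps was 3737 bp, and 95 of them (20.5%, interval 16.9 to 24.5%) were at most 1000 bp. The rule caps these gaps at the limit. Gaps within pairs, capped alike, had a median of 4502.5 bp (interval 3903 to 4950 bp). That interval overlapped the one for chains (3229 to 4388 bp). All 1261 neighbour gaps within the limit had a median of 4.115 kb. Among all 9093 gaps between neighbouring shared regions, without a cap, the median was 129 kb. Short gaps were the most frequent: 455 fell under 2.5 kb, 257 between 2.5 and 5 kb, and 166 between 10 and 12.5 kb. The next bin, from 12.5 to 15 kb, held 150, so the counts had no break at the limit. Just inside it lay chains with widest gaps of 12485 bp (chr12:55247687-55280075), 12443 bp (chr5:115801140-115824637) and 12435 bp (chr4:57778326-57807868). Just outside lay runs of 3 split by gaps of 12512 bp (chr2:59460116-59487254), 12541 bp (chr10:59419989-59438290) and 12571 bp (chr10:86210432-86233402). These last held 232, 373 and 320 anti-FLAG tags, against 227, 265 and 308 for those inside.

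**Figure D1:**
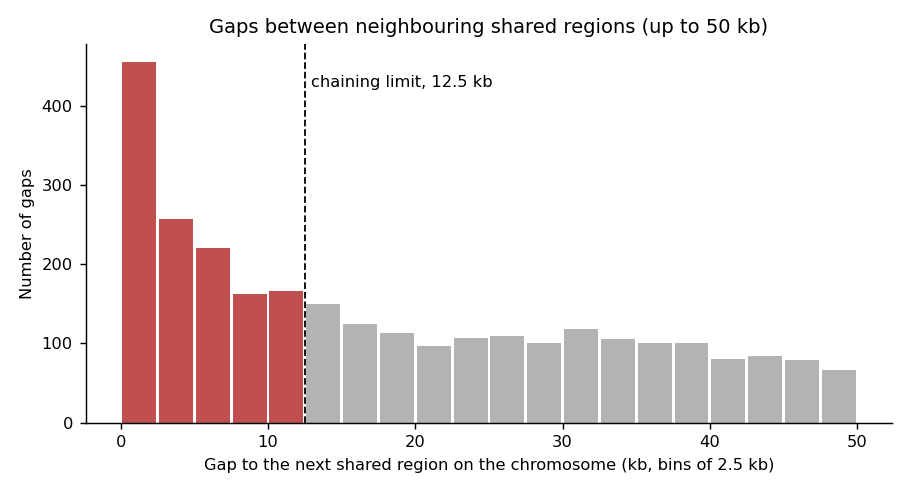
Number of gaps between neighbouring shared regions on a chromosome, in bins of 2.5 kb up to 50 kb, with gaps within the chaining limit of 12.5 kb in red. Counts fall from 455 in the first bin to 166 in the last bin within the limit and 150 in the next.

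Some chains were nearly continuous. In 10 of the 201, every gap was at most 1000 bp, and in 9 the members filled over 80% of the span. The most filled, chosen here after its values were seen, lay on the X chromosome (chrX:101180035-101183684): 3 regions covered 95.5% of 3650 bp, with 239 anti-FLAG and 199 streptavidin tags. At the other end, also chosen after its values were seen, chr5:13673621-13695429 held 3 regions over 21809 bp, filled to 10.3%, with 80 and 51 tags.

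Members were longer and held more tags than shared regions outside chains, but were not more enriched per peak. Their median length was 1414 bp, against 1212 bp in pairs and 1123 bp for lone regions. Median anti-FLAG tags were 75.5, 61 and 52 in the same order, and median streptavidin tags were 63, 52 and 43. Per kb of region, anti-FLAG tags had medians of 51.0, 48.5 and 45.1. The median of the highest anti-FLAG fold enrichment in a region was 9.54 in chains (interval 9.14 to 10.1), 10.0 in pairs and 10.1 for lone regions. By streptavidin it was 10.1, 10.8 and 10.9. Regions with 2 or more anti-FLAG peaks made up 4.22% of members and 1.14% of lone regions. Members thus made up 7.29% of shared regions and held 9.83% of their tags by either capture. Length bears on the rule itself, since a longer region leaves a shorter gap. With distances taken between midpoints, an alternative added after seeing the data, there were 176 chains of 569 regions.

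Summed over a chain, anti-FLAG tags had a median of 282 and a range of 76 to 1213. Streptavidin tags had a median of 231 and a range of 51 to 984. Per 1000000 unique tags the medians were 17.5 and 19.4. The ratio of anti-FLAG to streptavidin tags, each scaled to its library's unique tags, over all members together was 0.875, as over all shared regions (0.875). In single chains it ran from 0.510 to 1.40. The lowest belonged to chr13:34329906-34341894, with 168 anti-FLAG and 244 streptavidin tags, and the highest to chr4:116861935-116883857, with 246 and 130. Neither of these held a DMSO peak, and both were chosen after their values were seen.

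**Figure D2:**
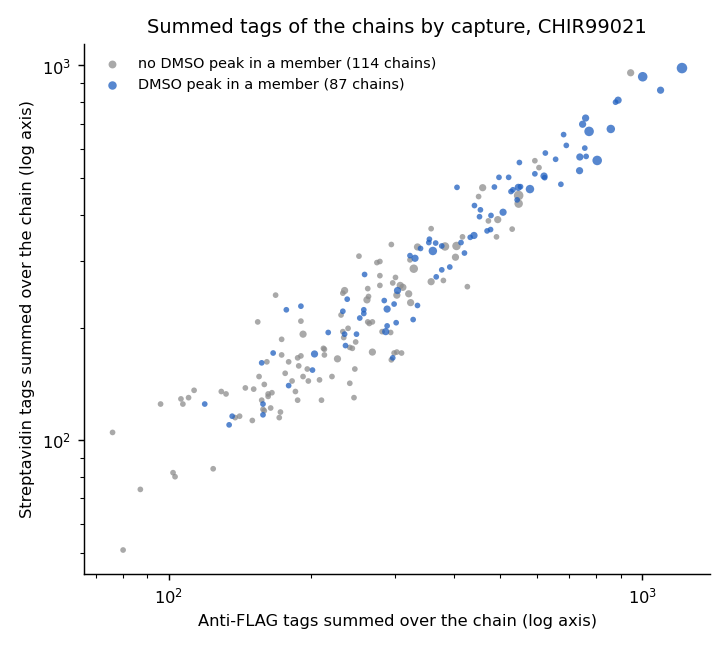
Anti-FLAG tags (horizontal) and streptavidin tags (vertical) summed over each chain, both on log axes, with 1 point per chain and larger points for more members. Chains with a DMSO peak in a member (blue) had a median of 406 anti-FLAG tags and those without (grey) one of 234.

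Chains were also ranked among all 7852 stitched units, lone regions and pairs included. Tags were again summed over each unit, so units of more regions tend to rank higher by construction. Chains made up 2.56% of the units. They took 6 of the top 10 places by summed tags, 47 of the top 100 and 70 of the top 201. The first place went to a pair, chr17:44740356-44747810, with 2976 anti-FLAG and 3840 streptavidin tags, and the next to a pair on chr9:94559442-94571396 with 1298 and 1267. Ranked as single regions, members held 14 of the top 100 places and 129 of the top 911 (14.2%). They made up 7.29% of all shared regions. Members were also longer, with a median of 1414 bp against 1123 bp for lone regions.

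The chain with the most members was also the one with the most tags. It lay on chromosome 7 (chr7:3192921-3222868), with 7 regions over 29948 bp, 1213 anti-FLAG tags and 984 streptavidin tags. In order along the chromosome, its regions held 61, 134, 106, 205, 196, 101 and 410 anti-FLAG tags. The streptavidin tags were 81, 104, 62, 202, 162, 108 and 265. The last region (chr7:3217243-3222868) was the longest at 5626 bp and led by both captures. The highest fold enrichment lay elsewhere, in the fifth region (chr7:3210443-3212916), at 17.92 by anti-FLAG and 20.14 by streptavidin. Gaps between the regions ran from 86 to 5714 bp. DMSO peaks lay only at the outer regions, 1 of 6 tags in the first and 2 of 11 and 8 tags in the last.

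The chain with the next most tags lay on chr8:74834549-74859598. Its 4 regions held 196, 327, 214 and 356 anti-FLAG tags and 171, 258, 131 and 299 streptavidin tags. The third was the longest at 4151 bp but had the lowest fold enrichment, 3.75 by anti-FLAG and 5.48 by streptavidin. DMSO peaks with 40 and 43 tags in all lay in the second and the last region, which also led in CHIR99021 tags. A streptavidin peak of 41 tags without an anti-FLAG partner lay in the gap before the last region.

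A different shape was seen on chr11:8466098-8489982, where 1 of 6 regions dominated. The second region (chr11:8468668-8470383) held 527 of 1002 anti-FLAG tags and 515 of 933 streptavidin tags, with fold enrichments of 31.49 and 42.25. The other members held between 38 and 154 anti-FLAG tags. All 3 DMSO peaks of the chain, with 48 tags together, lay in that second region. Another chain of 3 regions, chr11:8534433-8554934, began 44451 bp further on.

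Over all 201 chains, 87 (43.3%) held a DMSO peak, and these had more CHIR99021 tags at the median than those without. The chain on chr9:110840206-110864339 was the only one among the 10 with the most tags that held no DMSO peak. Its regions held 124, 507, 230 and 84 anti-FLAG tags and 70, 512, 293 and 81 streptavidin tags. The leading region (chr9:110847636-110852126) spanned 4491 bp at fold enrichments of 14.33 and 18.28. Its total of 945 anti-FLAG tags was above that of 6 chains in this group of 10 that did hold DMSO peaks.

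Next by tags were chains on chromosomes 17 and 11. On chr17:29192920-29219833, the outer regions were the strongest, with anti-FLAG tags of 334, 50, 197 and 308 along the chain. The single DMSO peak, of 8 tags, lay in the first. On chr11:117829936-117838490, 3 regions filled 87.1% of 8555 bp, and the last pair was separated by a gap of 30 bp. That pair held 317 and 491 anti-FLAG tags, and 7 DMSO peaks with 106 tags, the most DMSO tags of any chain. Fold enrichments reached 41.11 by anti-FLAG and 42.27 by streptavidin.

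A wide chain of low enrichment lay on chr8:109122845-109157708. It had 5 regions, 858 anti-FLAG and 677 streptavidin tags, and a highest fold enrichment of only 6.38 by anti-FLAG and 8.39 by streptavidin. Its longest region (chr8:109138246-109144794) spanned 6549 bp and held 372 and 258 tags. Of the single-list regions in its gaps, 1 was anti-FLAG with 101 tags and 2 were streptavidin with 93 and 92 tags. One DMSO peak of 9 tags lay in that region.

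The last of the 10 by tags lay on chromosomes 9, 16 and 4. On chr9:61114528-61142653, 3 of 4 regions held DMSO peaks, with 62 tags in all, and the last region held 446 of 759 anti-FLAG tags. On chr16:22402129-22413920, 4 regions stood within 11792 bp with no gap over 1585 bp, and anti-FLAG tags of 240, 156, 82 and 270. On chr4:149603460-149635778, 6 regions held 772 and 667 tags, with fold enrichments up to 35.95 and 34.96 and a single DMSO peak of 7 tags.

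**Figure D3:**
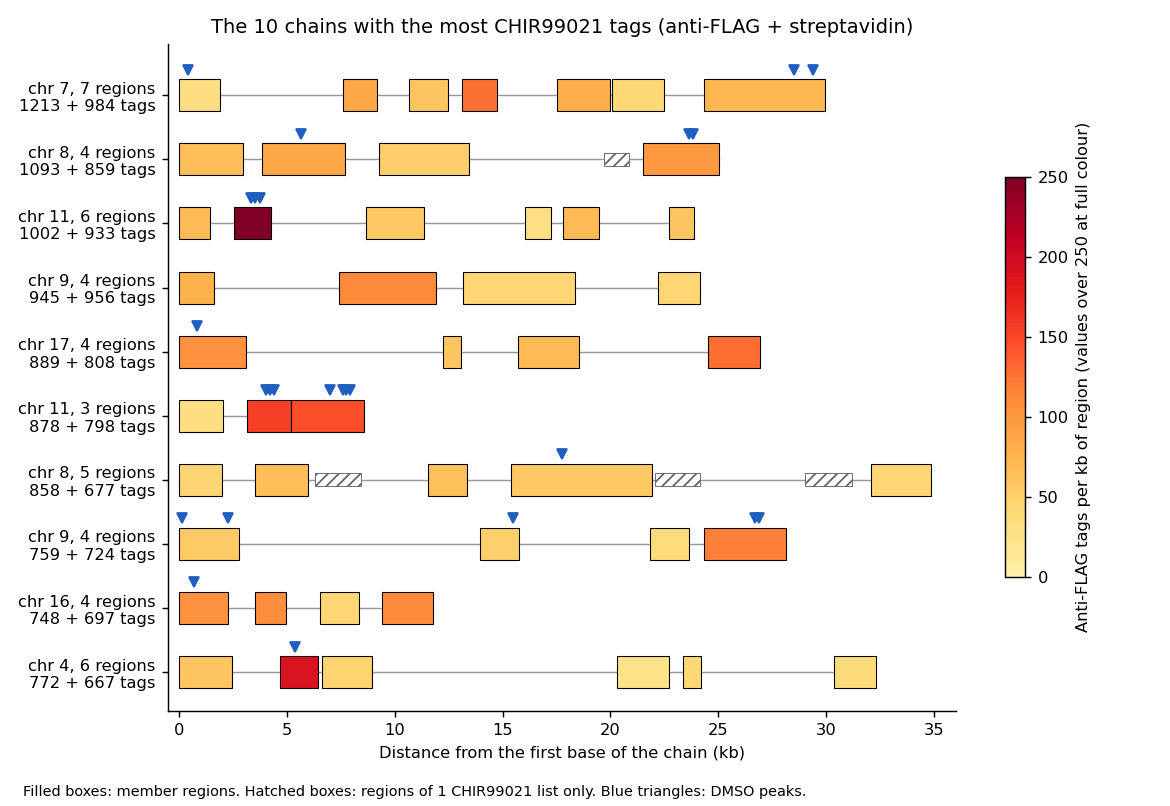
The 10 chains with the most CHIR99021 tags, drawn to scale from the first base of each (kb), with member regions coloured by anti-FLAG tags per kb, hatched boxes for regions of 1 CHIR99021 list and triangles for DMSO peaks. The chain on chromosome 7 has 7 members spread over its length, whereas most tags of the chain of 6 on chromosome 11 lie in its second region.

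Among the 10 chains with the most members, 6 held a DMSO peak, against 87 of all 201 chains (43.3%). The 7 chains of 5 regions were tied, and those with more tags were taken. Over all 12 chains of 5 or more it was 7. The chain with the longest span of all, chr18:65724955-65766920, had 6 regions over 41966 bp, with 44 to 133 anti-FLAG tags and 41 to 111 streptavidin tags per region, and no DMSO peak. On chr15:25669632-25704307 the strongest of 6 regions held 22.5% of 803 anti-FLAG tags, a share that is lower where a chain has more regions. Chains of 5 regions lay on chr6:39369558-39401109 with 579 and 468 tags, chr17:66806349-66834752 with 548 and 428, chr2:32010781-32038189 with 405 and 330, and chr16:23099368-23128647 with 383 and 329. The last 3 of these held no DMSO peak. Long spans did not need many tags: chr12:55247687-55280075 covered 32389 bp with 227 and 165.

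Within chains the tags were uneven, and both captures usually put the same region first. The strongest region held a median of 48.7% of a chain's anti-FLAG tags (interval of the median 47.6 to 50.3%) and 48.0% of its streptavidin tags. By anti-FLAG this share was 49.9% in chains of 3, 43.4% in chains of 4 and 37.2% in longer ones. A strongest region holds at least an even share by construction, and no such share for pairs is given beside it. Both captures had the same strongest region in 166 of 201 chains (82.6%, interval 76.6 to 87.6%). Ranked by fold enrichment, they had it in 148 (73.6%, interval 67.0 to 79.6%). In either ranking, a chain with tied leaders counted where any tied region led by both captures. In the 35 chains where the leaders by tags differed, the strongest region held a median of 45.0% of anti-FLAG tags, against 50.5% where they were the same. The lists share their input and chose the members together, so this is a description of the calls.

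In 5 chains the leading region held over 70% of the tags by both captures. The most uneven, chosen after its values were seen, was chr17:29565570-29589264, where 1 of 3 regions held 84.3% of 553 anti-FLAG tags and 82.5% of 475 streptavidin tags. The leader was the middle region in 59 of 158 chains of 3 (37.3%, interval 29.8 to 45.4%). That interval contains an even share of 1 in 3. Inner members had a median of 83.0 anti-FLAG tags (interval 74.0 to 91.0) and outer members 69.0 (interval 62.0 to 77.0). By streptavidin the medians were 66.5 (60.0 to 74.0) and 60.5 (56.0 to 65.0). Inner members were also longer, at a median of 1515 bp against 1353.5 bp. Their median anti-FLAG fold enrichment was 9.48, against 9.555 for outer members. The highest single fold enrichment among members, chosen after it was seen, was 132.68 by anti-FLAG and 141.79 by streptavidin, in a chain of 4 on chr5:28140553-28157653.

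The DMSO library was not used to choose the chains. A DMSO peak lay in 110 of 664 members (16.6%, interval 13.8 to 19.6%), against 12.9% of all shared regions. It was 14.8% (13.1 to 16.6%) in pairs and 12.2% (11.4 to 13.0%) for lone regions. With DMSO peaks of at least 10 tags the shares were 7.38%, 6.08% and 4.12%, against 4.70% of all shared regions. Members hold more CHIR99021 tags, and the DMSO share was higher at higher tag counts among members, pairs and lone regions alike. At like tag counts the intervals of the 3 overlapped. In regions of 165 or more summed CHIR99021 tags, 31.3% of members (84 of 268, interval 25.8 to 37.3%) and 33.1% of lone regions (interval 30.8 to 35.6%) held a DMSO peak. Between 102 and 164 tags it was 11.7% (7.37 to 17.3%) and 11.2% (9.76 to 12.8%). Between 68 and 101 tags it was 3.62% (1.19 to 8.25%) and 5.20% (4.20 to 6.34%). At 67 tags or fewer it was 0 of 78 members, which allows a share of up to 3.85% by a limit of 3 counts and 4.62% by the exact interval. Of lone regions it was 2.88% (2.18 to 3.74%). Per Mb of region, members held 137 DMSO peaks, pairs 145 and lone regions 125. Intervals treat regions as independent, although members of 1 chain are neighbours.

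**Figure D4:**
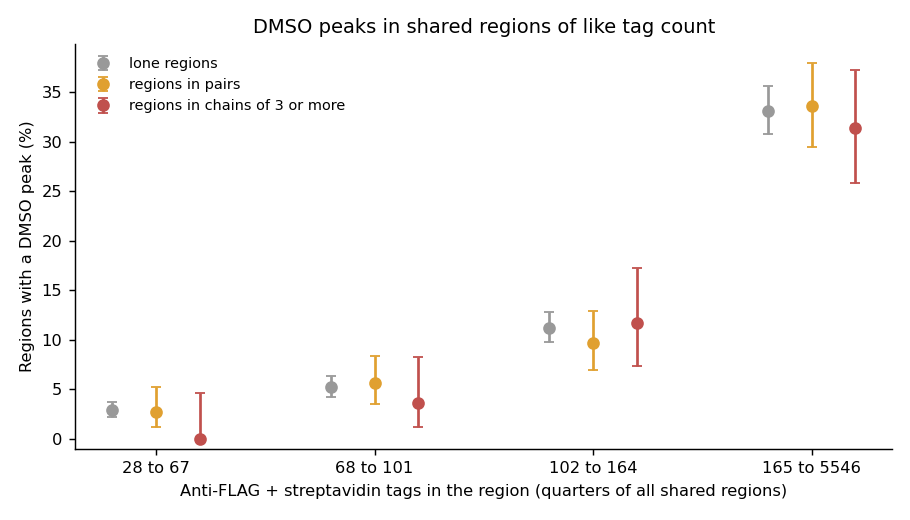
Share of shared regions with a DMSO peak (%), by summed CHIR99021 tags in 4 equal classes, for lone regions, pairs and chain members, with bars for 95% exact intervals over regions. The share is at most 2.88% in the lowest class and between 31.3% and 33.6% in the highest, and the intervals of the 3 kinds of region overlap in each class.

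At the level of whole chains, 87 of 201 (43.3%, interval 36.3 to 50.4%) had a DMSO peak in a member, against 213 of 798 pairs (26.7%, interval 23.7 to 29.9%). More regions give more chances for a peak. The share was 41.1% (33.4 to 49.2%) in chains of 3, 48.4% (30.2 to 66.9%) in chains of 4 and 58.3% (27.7 to 84.8%) in the 12 longer ones. Chains with a DMSO peak held more CHIR99021 tags, a median of 406 by anti-FLAG (interval 335 to 479) against 234 (197 to 262) in those without. Their spans were alike, with medians of 15163 bp (12257 to 18165 bp) and 14957 bp (13213 to 16384 bp).

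In most chains with DMSO signal, only a single region carried it: 69 chains had it in 1 member, 13 in 2 and 5 in 3. The 5 lay on chr4:55476254-55492001 (52 DMSO tags), chr9:61114528-61142653 (62), chr10:60857005-60880285 (43), chr3:95454095-95481257 (31) and chr14:61662036-61676765 (21). In 50 of the 69 (72.5%, interval 60.4 to 82.5%) that member was the strongest by CHIR99021 tags. With the chains of several carriers included, the strongest region held a DMSO peak in 67 of the 87 (77.0%, interval 66.8 to 85.4%). Counted over all chains, 33.3% of leaders (26.9 to 40.3%) and 9.29% of the other members (6.80 to 12.3%) held one. Leaders have more tags by construction. Within members of 165 or more tags, 39.2% of leaders (60 of 153, interval 31.4 to 47.4%) and 20.9% of others (24 of 115, interval 13.9 to 29.4%) held one, at median tag counts of 296 and 238. Between 102 and 164 tags the shares were 18.9% (7.96 to 35.2%) and 9.79% (5.46 to 15.9%). Between 68 and 101 tags the order was the other way, with 0 of 10 leaders and 5 of 128 others (3.91%, interval 1.28 to 8.88%).

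The most DMSO tags after chr11:117829936-117838490 were those of chr8:74834549-74859598, with 83. On chr4:141117048-141126829, a single DMSO peak of 81 tags (chr4:141121320-141121756) lay in the middle region. That region also held 356 of 533 anti-FLAG tags and 322 of 466 streptavidin tags, at fold enrichments of 49.19 and 59.68. On chr19:44335888-44357740, 4 DMSO peaks with 75 tags lay in 2 of 3 regions.

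The gaps inside chains held further CHIR99021 regions, though most gaps held none. They summed to 2.11 Mb and held 54 single-list CHIR99021 regions, 25.6 per Mb (interval 19.3 to 33.5), against 5.27 per Mb (5.18 to 5.36) in the rest of the chromosomes outside shared regions. Of these, 26 were found by anti-FLAG alone and 28 by streptavidin alone, in 49 of the 463 gaps. The rule did not chain single-list regions, but they come from the same peak lists as the members. Any CHIR99021 region in a chain gap is single-list by construction, since a shared one would be a member. The density of single-list regions was 17.5 per Mb (14.1 to 21.6) within 12500 bp on the outer sides of chains. It was 17.6 (13.7 to 22.2) in the gaps of pairs and 13.6 (12.02 to 15.3) beside pairs. Beside lone regions it was 10.6 per Mb (10.1 to 11.1). The interval for chain gaps overlapped those for the outer sides of chains and the gaps of pairs. It did not overlap those beside pairs or lone regions.

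DMSO peaks outside shared regions were also denser in chain gaps than in the rest of the chromosomes. The chain gaps held 20, or 9.50 per Mb (interval 5.80 to 14.7), against 4.36 (4.28 to 4.44) in the rest. The outer sides of chains held 11.2 per Mb (8.43 to 14.5), those of pairs 6.70 (5.61 to 7.94) and those of lone regions 6.51 (6.13 to 6.91). The gaps of pairs held 8.14 per Mb (5.57 to 11.5). The interval for chain gaps contains each of these densities, so a higher density is not particular to chain gaps. None of the 20 had 10 or more tags. Peaks of that size outside shared regions were rare everywhere, at 0.105 per Mb, and a count of 0 in the gaps allows up to 1.42 per Mb by a limit of 3 counts and 1.75 by the exact interval.

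**Figure D5:**
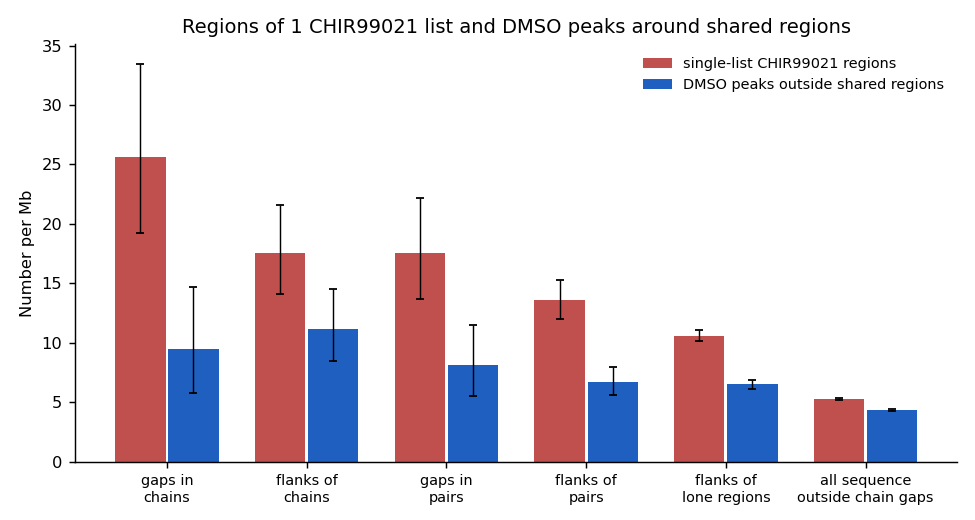
Single-list CHIR99021 regions (red) and DMSO peaks outside shared regions (blue) per Mb in the gaps of chains and pairs, within the chaining limit beside chains, pairs and lone regions, and in all sequence outside chain gaps and shared regions, with bars for 95% exact Poisson intervals. Single-list regions go from 25.6 per Mb in chain gaps to 10.6 beside lone regions and 5.27 in the rest.

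Chains lay on every chromosome from 1 to 19 and on X. Chromosome 17 stood out: it had 16 chains, 17.3 per 100 Mb, and 52 of its 373 shared regions were members (13.9%, interval 10.6 to 17.9%), against 7.29% in all. It was picked as the highest of 20 chromosomes. Its density of shared regions, 4.04 per Mb, lay below that of chromosome 9, the densest at 4.56, where 5.44% were members (3.70 to 7.68%). On chromosome 16 there were 2 chains and 3.18% (1.46 to 5.95%). Chromosome X had 1.95 shared regions per Mb, the lowest density, but 7.96% of them (5.22 to 11.5%) were members, in 8 chains. Without chromosome 17 the share over all was 7.002%.

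On chromosome 17, 5 chains lay between chr17:27366679 and chr17:29589264, in order with 190, 151, 889, 455 and 553 anti-FLAG tags. The last pair of these stood 22469 bp apart. Across the genome, 8 neighbouring pairs of chains were within 100 kb of each other. The closest were chr14:61623073-61643383 and chr14:61662036-61676765, 18653 bp apart, each with 3 regions. On chromosome 12, chr12:55203023-55214657 ended 33030 bp before the chain of 4 at chr12:55247687-55280075. On chromosome 17, chr17:71114543-71131486 and chr17:71177267-71200581 lay 45781 bp apart.

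The DMSO peaks, chained by the same limit, formed 290 chains of 3 or more peaks. Of these, 19 (6.55%, interval 3.99 to 10.0%) overlapped a chain of shared regions, which is 9.45% of the 201 (5.79 to 14.4%). No share for pairs or lone regions is given beside these, so neither value can be read as high or low. DMSO peaks are short and several can lie in 1 shared region, so their chains are not of the same kind.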

How the data were processed

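β-Catenin ChIP-seq peak tables of 3 libraries were used. Per the file headers, the authors ran MACS on ELAND alignments of each ChIP library and its input, at a p-value cutoff of 1.00e-05. No MACS version is named. The submitters' processing notes give mm9 as the build. Each deposited row holds raw tag counts, a score of 10 times −log10 of the p-value, a fold ratio to local background and an FDR in percent, per the file headers. Fold ratios are the authors' values for single peaks and were used only within a list. Both CHIR99021 lists were called against the same input.

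Intervals of both CHIR99021 lists were merged, and regions with a peak of each list were chained where the next start lay at most 12500 bp after the last end. Tags were summed over peaks. Shares carry 95% exact (Clopper-Pearson) intervals, densities exact Poisson intervals and medians order-statistic intervals. All cover counting or sampling of regions only, since PCR reads are not independent molecules and each group had 1 library. No test across samples was possible. The chains, lists and alternatives were chosen with earlier results of these data known. Chains were named by rule: the 10 with the most members, the 10 with the most tags, the 5 longest and the 5 with the most DMSO tags. Planned results on genes and on the TCF/LEF motif were not run, because no mm9 sequence or annotation was used here. The chaining code was tested on simulated lists. Scripts ran in Python 3.11.15 with scipy 1.17.1, pandas 2.3.3, matplotlib 3.10.9 and numpy 2.4.6.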

Additional observations from a re-analysis of the deposited data

How the results depend on the processing

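The number of chains followed the limits. There were 88 chains of 281 regions with gaps of at most 5000 bp and 351 of 1231 with 25000 bp. Stricter peaks left 49 of 159 at a p score of at least 100, 24 of 73 at a fold of at least 10 and 81 of 257 at an FDR of at most 1%. Chains of 4 or more numbered 43, of 190 regions. The median span was 9053 bp with gaps of at most 5000 bp and 24552 bp with 25000 bp. It was 16840 bp at that p score, 16553 bp at that fold and 25050 bp for chains of 4 or more. Median anti-FLAG and streptavidin tags were 442 and 365 at that p score, 367.5 and 346 at that fold, and 405 and 330 in chains of 4 or more. The strongest region's median share of anti-FLAG tags was 47.2% at that fold, 45.5% at that FDR and 41.3% in chains of 4 or more. Both captures had the same leader in 75.3% of chains at that FDR. Members with a DMSO peak made up 30.8% at that p score, 31.5% at that fold and 7.38% with DMSO peaks of at least 10 tags, against 16.6%. Chains with one made up 67.3%, 66.7% and 21.4% in that order, and 51.2% for chains of 4 or more, against 43.3%. Of all shared regions at the main settings, 12.9% held a DMSO peak and 4.70% one of at least 10 tags. Shares of all shared regions at that p score and fold were not computed, so those values cannot be read as particular to members. The density of DMSO peaks in chain gaps, 2.18 times that of the rest, was 0 times with at least 10 tags. Stricter peaks and longer chains left fewer regions, and the p score and fold limits by definition kept the stronger peaks. Why the values moved was not tested. Another 42 values lay inside the main value's interval, or within 1.5 times of a main count, among them those with 50% reciprocal overlap, 400 bp DMSO windows and midpoint distances. Midpoint distances and the runs without chromosome 17 or without chromosomes 8 and 9 were added after seeing the data. Alternatives on motifs and genes could not be computed. No paired analysis was possible because replicates do not exist in any group. Since the DMSO depth is unknown, it limits every statement on regions without a DMSO peak.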
